A study of Mus musculus with 9 samples.

Results

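The messenger RNA of 7 inducible genes was followed through 9 libraries of sorted mouse bone marrow cells. They are 3 early-response genes (Junb, Ier2 and Zfp36) and 4 genes known as targets of the transcription factor NF-kB (Icam1, Bcl3, Birc3 and Il1b). They were taken by name from a table of 2402 genes, with earlier results of these data known. Whether they go together was read off each library in turn, beside the stem cell antigen gene Ly6a (Sca1).

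Early-response genes are transcribed within minutes of a signal from transcription factors that are already in place, and their RNAs are short-lived. NF-kB is held in the cytoplasm by inhibitor proteins until receptors of cytokines or microbial products release it, after which it switches on adhesion molecules, survival factors, cytokines and its own inhibitors. Both programmes are used by haematopoietic stem cells and by megakaryocytes, the cells that shed platelets.

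The cells came from male C57BL/6 mice carrying a Flt3-cre allele and the mTmG reporter, in which red cells (Tom+) turn green (GFP+) for good, with all their descendants, once Cre is expressed. Flt3 drives Cre in this cross, so the colour records a passage through Flt3 expression, and every group carries both alleles. Megakaryocyte progenitors (MkP; lineage-negative, cKit+, Sca1-, CD150+, CD41+) were sorted as 2 old Tom+ MkP, 2 old GFP+ MkP and 3 young GFP+ MkP samples, and stem cells (HSC; lineage-negative, cKit+, Sca1+, CD150+, Flk2-) as 2 old Tom+ HSC samples. Old mice were 18 to 20 months of age and young mice 3 months. The labels do not say whether each sample is 1 animal or a pool.

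The rows of the deposited table carry no sample names, so no library could be given its group, and no comparison between the labelled groups was made. Libraries are numbered 1 to 9 by row, as a name only. Values are normalized counts, scaled per library by the authors, with 1790670 to 4373460 reads per library on the genes of the table. Libraries 3 and 4 had Ly6a at 4256 and 5772 normalized counts. The next lower library, library 9, had 187, and the lowest of the other 7 had 21.0. A threshold of 1000 normalized counts of Ly6a therefore separated libraries 3 and 4, called Ly6a-high here, from the other 7. This split was made from the table itself, so what follows describes libraries and carries no mean, SD or test between the sides.

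The Ly6a-high libraries also stood apart in the markers of the sorted cell types. The 4 of 8 listed stem cell genes in the table (Procr, Mecom, Hlf and Hoxb5) summed to 6983 and 4025 normalized counts in libraries 3 and 4, against 33.7 to 350 in the other libraries. Procr made up most of the sums in libraries 3 and 4, at 5639 and 3329. Hoxb5 had 400 and 223 there, against 3.07 to 195. Its nearest libraries, 4 and 8, were not told apart by counting error (ratio 1.14, 95% exact counting interval 0.931 to 1.41). All 8 listed megakaryocyte genes were measured and summed to 3075 and 8813 in the Ly6a-high libraries, against 74949 to 141086 in the others. In such bulk libraries, fewer cells of a type and less RNA per cell cannot be told apart.

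Of the 7 genes, 6 were higher in both Ly6a-high libraries than in any of the others, and Il1b was lower in both. The table as a whole was divided in the same way. A filter kept the 2341 genes that reached 10 normalized counts in 2 or more libraries. Of these, 51% were above and 40.8% below all other libraries, so a lack of overlap does not set the 7 genes apart from the rest of the table. How the genes of the table were chosen is not given. Shares of all genes are therefore shares of this table, not of all mouse genes, and a listed gene called measured is one that is in it. The split into genes above and below depends on the scaling: 1193 genes were above and 954 below as deposited, against 1307 and 553 when libraries were scaled to the table total. All 7 passed that expression filter, and 6 of them reached 10 normalized counts in every library. The gap is the log2 difference, with 1 added to each value, between the nearest libraries of the 2 sides. Taken upwards for every gene, as the lowest Ly6a-high library minus the highest other one, it had a median of 1.42 over the 7 genes and 0.04 over all 2341. The median over all genes mixes genes above and below, so it is not the usual gap of a higher gene. Of the 7 genes, 5 lay at least 2-fold above every other library, as did 24.1% of all genes, and 1, Il1b, at least 2-fold below, as did 12.9%. The 7 genes and the gene lists used below were chosen with earlier results of these data known. Their shares and medians beside those of all genes are thus a description and no sign of enrichment.

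**Figure D1:**
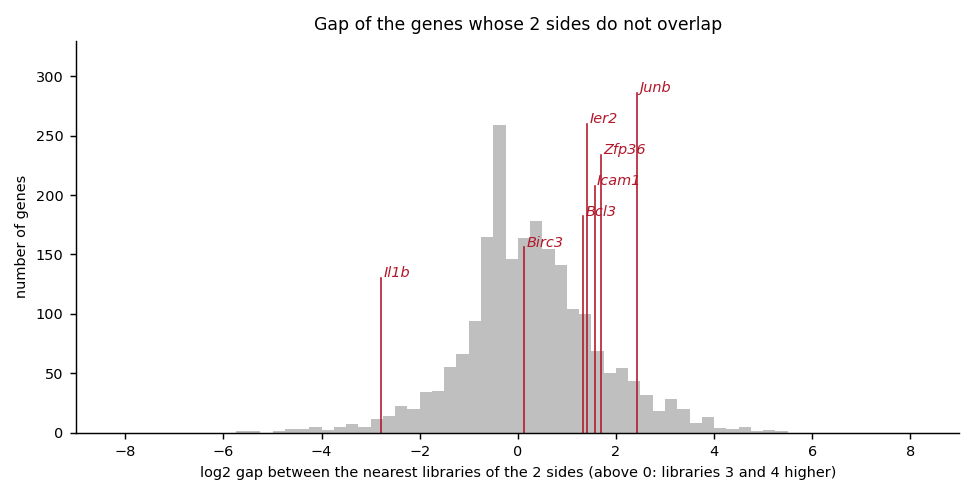
Number of genes (vertical axis) by the log2 gap between the nearest libraries of the 2 sides (horizontal axis), for the genes whose sides do not overlap; positive values are higher in libraries 3 and 4. Red lines mark the 7 genes: Junb lies farthest to the right at 2.42, Birc3 near 0 at 0.12 and Il1b to the left at -2.79.

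Junb encodes a subunit of the AP-1 transcription factor. It is protein-coding and lies in mm10 at chr8:84974484-84978718 on the minus strand. It had 4775 and 6617 normalized counts in libraries 3 and 4. The other 7 libraries ran from 537 through a median of 654 to 889. The Ly6a-high libraries were both far above the others, and the other 7 lay within a 1.66-fold band (95% exact counting interval 1.47 to 1.87). The smallest difference between the sides, library 3 against library 8, was 5.37-fold (interval 4.99 to 5.79). Of the 6 genes that were higher, Junb had the widest gap, and of all 7 it had the narrowest spread among the other libraries.

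Ier2, a small nuclear early-response protein, lies on the same chromosome at chr8:84661331-84662852. Its levels were 9471 and 7334 in libraries 3 and 4, against 1247 to 2742 in the others, with a median of 1750. The sides did not overlap, and the nearest libraries, 4 and 9, differed 2.67-fold (interval 2.57 to 2.78). Library 9 was the highest of the other libraries for Ier2, whereas it was not for Junb (642) or Zfp36 (745).

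Zfp36 encodes tristetraprolin, which binds AU-rich elements in short-lived mRNAs and speeds their decay, its own included. It lies at chr7:28376784-28380253 on the minus strand. It had 4468 and 2708 normalized counts in the Ly6a-high libraries, against 394 to 836 in the others, with a median of 536. The gap was 3.24-fold (interval 2.92 to 3.60), between libraries 4 and 2. It was 1.69 on the log2 scale, and 2.42 without library 4. Libraries 2, 8 and 9 were higher than the other 4 libraries with low Ly6a, at 745 to 836 against 394 to 536. Before the RefSeq start of Zfp36, from base -68 to base -39 (GRCm38.p6, chr7:28379267-28379296, minus strand), the sequence holds a CArG box, the letters that serum response factor reads. It is shown because early-response genes are known for such boxes. The capitals mark the box.
Zfp36 CArG: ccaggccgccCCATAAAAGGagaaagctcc
A CArG box was found in the 250 bases before the start of 1.47% of 32851 RefSeq promoters, and in none of the other 5 genes of the 7 with a promoter entry. Ier2 has no entry there. In the longer of the 2 Zfp36 transcripts of GENCODE M21 this stretch lies inside the first exon. The cAMP response element TGACGTCA and the AP-1 motif TGANTCA, searched on both strands, had no match in these 6 windows (1.55% and 6.75% of all promoters).

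Icam1 encodes the adhesion molecule through which leukocyte integrins hold on to endothelium and other cells. It lies at chr9:21015985-21028817 on the plus strand. Library 3 had 1318 and library 4 had 888 normalized counts. The other libraries had 67.3 in library 1, 110 in library 2, 26.1 in library 5, 36.4 in library 6, 35.3 in library 7, 300 in library 8 and 205 in library 9. Icam1 was thus graded among the libraries with low Ly6a, with libraries 8 and 9 highest and libraries 5, 6 and 7 lowest. The sum of the stem cell markers was also highest there in libraries 8 and 9, at 350 and 178. Libraries 1, 2, 5, 6 and 7 had sums of 33.7 to 70.7. The transcription factor gene Hoxb5, one of these markers, had 195 and 112 against 3.07 to 11.8, and made up most of the sum in both library 8 and library 9. Hlf was also highest in libraries 8 and 9, at 37.7 and 39.8, against at most 19.7. Procr and Mecom were highest in library 8 (97.5 and 19.9). In library 9 (17.4 and 9.42) they were not above library 2 (31.4 and 9.81). The part of the stem cell markers in the levels of Icam1 and Bcl3 was not tested. The range of Icam1 over the 7 libraries with low Ly6a, 11.5-fold (interval 7.57 to 18.2), was far wider than the 1.66-fold to 2.20-fold of the 3 early-response genes. Over all genes the median log2 range within these 7 libraries was 1.30. It was 1.08 for the early-response genes and 2.82 for the 4 NF-kB targets. Of these 4, Bcl3 (4.47), Icam1 (3.47) and Il1b (2.18) had wide ranges, whereas Birc3 (1.32) was near the median of all genes. The gap of Icam1 to the Ly6a-high libraries was 2.96-fold (interval 2.58 to 3.40).

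Bcl3, an atypical member of the inhibitor family that works with NF-kB subunits in the nucleus, lies at chr7:19808462-19822770 on the minus strand. It had 682 and 1277 normalized counts in libraries 3 and 4. The others had 65.6 in library 1, 21.6 in library 2, 15.2 in library 5, 11.2 in library 6, 24.6 in library 7, 269 in library 8 and 73.9 in library 9. Library 8 again came nearest to the Ly6a-high libraries, 2.53-fold below library 3 (interval 2.18 to 2.94), and the other 7 libraries ranged 24.1-fold (interval 12.0 to 56.4), with 8 reads in the lowest. The log2 gap was 1.34, and it was 3.19 without library 8 and 2.24 without library 3.

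No match to the NF-kB motif of 10 letters was found in the 250 bases before the RefSeq start of any of the 6 genes with an entry, against 3.90% of all promoters with one. After that result, and after the Icam1 and Bcl3 sequences had been read, the looser letters GGNNNTTCC were chosen so as to cover stretches seen in those promoters. The matches in these genes follow from that choice and are no support for it. Both promoters are shown because these genes had the widest ranges of the NF-kB targets that were higher in the Ly6a-high libraries, with the loose matches on either strand in capitals. Each stretch is the 180 bases up to the start, Icam1 from chr9:21015760-21015939 (plus strand) and Bcl3 from chr7:19822756-19822935 (minus strand) of GRCm38.p6.
Icam1 promoter: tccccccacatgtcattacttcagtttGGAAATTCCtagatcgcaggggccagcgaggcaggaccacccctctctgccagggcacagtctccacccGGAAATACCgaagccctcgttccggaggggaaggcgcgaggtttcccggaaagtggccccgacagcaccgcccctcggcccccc
Bcl3 promoter: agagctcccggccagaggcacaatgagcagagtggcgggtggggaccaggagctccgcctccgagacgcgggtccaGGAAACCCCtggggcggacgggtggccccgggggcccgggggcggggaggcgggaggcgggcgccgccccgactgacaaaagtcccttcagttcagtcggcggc
The Icam1 matches lie at -153 to -145 and -84 to -76, and the Bcl3 match at -104 to -96. The loose letters were present in 15.7% of the 32851 promoters.

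Birc3 encodes an inhibitor of apoptosis that also acts as a ubiquitin ligase on the way to NF-kB, and lies at chr9:7848699-7873186 on the minus strand. It had 143 and 75.5 normalized counts in libraries 3 and 4, against 27.2 to 69.2 in the others, with a median of 41.2. The Ly6a-high libraries were nominally the highest, but library 4 (66 reads) and library 8 (66 reads) differed only 1.09-fold, with an interval of 0.764 to 1.56 that includes no difference. Under median-of-ratios scaling and under quantile normalization library 4 fell inside the range of the other libraries. The log2 gap of 0.12 was 1.03 without library 4. Birc2, the paralog 11.6 kb away, had 111 and 61.8 in the Ly6a-high libraries and 38.8 to 65.7 in the others, so its sides overlapped. Reads that the close copies Birc2 and Birc3 share could have been assigned to either.

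Il1b encodes interleukin-1 beta, the inflammatory cytokine that is itself among the best known NF-kB targets and whose RNA is also known from human platelets. It lies at chr2:129364570-129371139 on the minus strand. Library 3 had 0 reads and library 4 had 2 reads, or 2.29 normalized counts. The other libraries had 102 in library 1, 72.6 in library 2, 55.4 in library 5, 46.2 in library 6, 62.9 in library 7, 34.6 in library 8 and 21.7 in library 9, from 30 to 62 reads each. Il1b was therefore detected in each library with low Ly6a and was near or under the limit of detection in both Ly6a-high libraries. With 0 reads the limit for library 3 was set at 3 reads, equal to 3.54 normalized counts there. The value of library 9 was 6.14-fold above this set limit. That ratio leaves out counting error and is no lower bound of the difference. The exact Poisson intervals of the levels were 0 to 4.35 in library 3 and 14.7 to 31.0 in library 9. Library 4 stood at 0.105 of library 9 (interval 0.0122 to 0.415). The log2 gap was -2.79, and -3.44 without library 9. Without library 4 only the comparison with the set limit of library 3 remains, 6.14-fold at the value of library 9. Libraries 8 and 9, the highest of their side for Icam1 and Bcl3, were the lowest of it for Il1b. The ratio of Il1b to Icam1 was 0 and 0.00258 in libraries 3 and 4, against 0.106 and 0.115 in libraries 9 and 8 and 0.661 to 2.13 in the remaining 5.

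**Figure D2:**
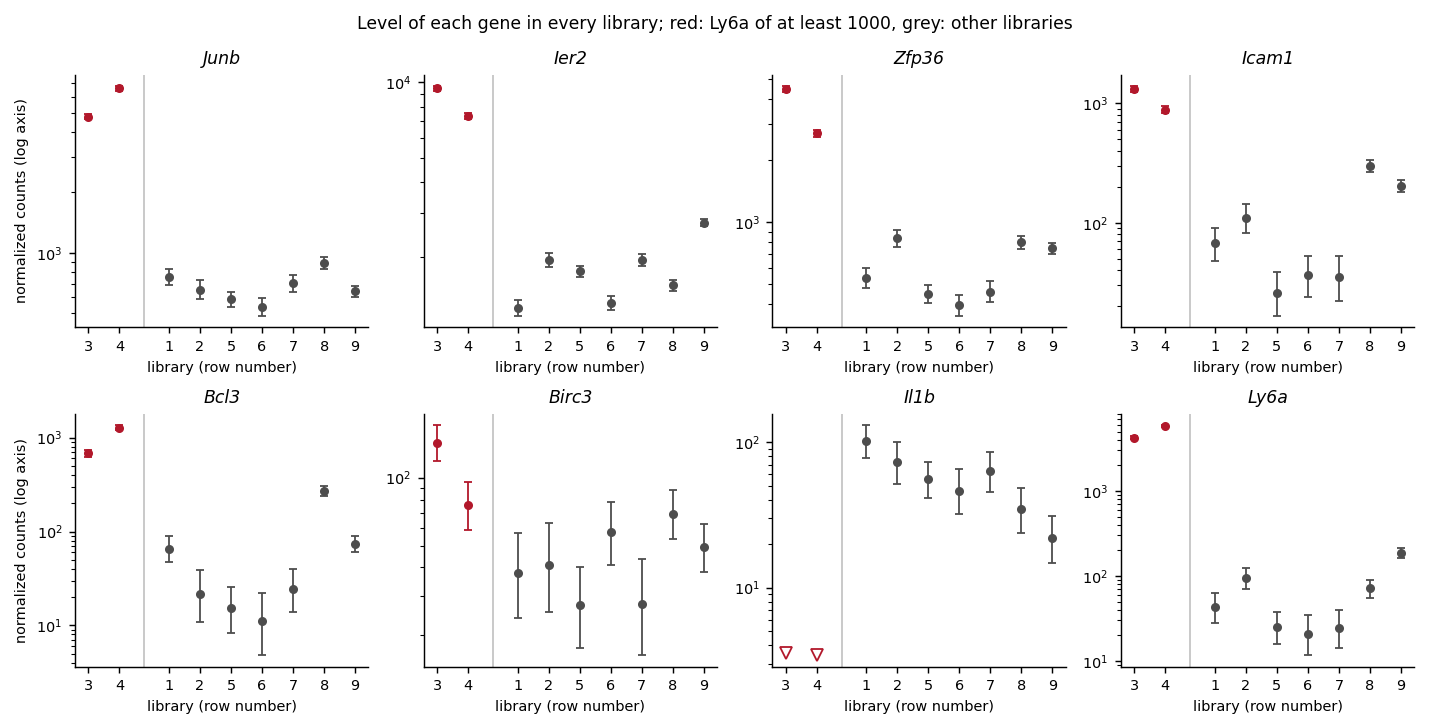
Normalized counts (log axis) of the 7 genes and of Ly6a in each library, with 95% exact Poisson intervals for counting error; red points are libraries 3 and 4 (Ly6a of at least 1000) and grey points the other 7, and open triangles stand at the level of 3 reads where fewer were counted. Junb has the narrowest range of the 7 genes over the grey libraries (537 to 889), Icam1 and Bcl3 are highest there in library 8, and Il1b is the one gene that is lower in red (0 and 2.29) than in grey (21.7 to 102).

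Markers of other cells that are known to make Il1b went different ways. Of 9 monocyte and macrophage markers, the 2 measured (Csf1r, the macrophage growth factor receptor, and Cd5l, a macrophage secreted protein) summed to 0 and 1.14 normalized counts in libraries 3 and 4, against 22.0 to 122 in the others. Csf1r had 0 reads in library 3 and 1 in library 4, and Cd5l had 0 in both. Among the other 7 libraries, library 9 had the highest sum (122) and the lowest Il1b (21.7). Of 7 neutrophil markers, Csf3r, the granulocyte growth factor receptor, went the other way at 668 and 862 against 6.14 to 120, and Cxcr2 overlapped (1.18 and 5.72, against 0 to 58.7). Their part in the Il1b difference was not tested. Of 7 endothelial markers, the 2 measured (Emcn and Cldn5) summed to 1213 and 2110 in libraries 3 and 4, against 4.20 to 48.2, on the same side as Icam1, and their part in its level was not tested.

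AU-rich letters, which tristetraprolin binds, were looked for in the 3' UTRs because they tie Zfp36 to the other short-lived RNAs. The core TATTTAT was present in the longest annotated 3' UTR of 4 of the 7 genes (Zfp36, Icam1, Birc3 and Il1b), against 27.1% of the 2199 genes of the table with an annotated 3' UTR and 22.1% of the 927 whose 3' UTR is as long as those of the 7 genes. For each of the 4 genes 30 bases around the densest run are given 5' to 3', with whole matches in capitals.
Zfp36 (chr7:28376958-28376987, minus strand): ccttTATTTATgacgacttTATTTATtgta
Icam1 (chr9:21028313-21028342, plus strand): ctcttcttgatgTATTTATtaatttagagt
Birc3 (chr9:7857117-7857146, minus strand): tTATTTATTTATttaaaagattTATTTATt
Il1b (chr2:129364802-129364831, minus strand): cttaccTATTTATTTATgTATTTATtgatt
The shorter ATTTA occurred 8.71 times per kb in the 3' UTR of Il1b, 4.59 times in those of Icam1 and Birc3, 4.12 times in Junb and 3.88 times in Zfp36, and not at all in Bcl3 and Ier2. The median over the 2199 genes was 1.14 per kb. Genes with the core lay on both sides of the split, Zfp36 and Icam1 higher and Il1b lower in the Ly6a-high libraries.

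The 2 Ly6a-high libraries did not rank the genes alike. The ratio of library 4 to library 3 was 1.87 for Bcl3 (interval 1.69 to 2.07) and 1.39 for Junb (1.33 to 1.44). It was 0.774 for Ier2 (0.749 to 0.800), 0.674 for Icam1 (0.614 to 0.739), 0.606 for Zfp36 (0.576 to 0.638) and 0.529 for Birc3 (0.386 to 0.720). Counting error left 6 of the 7 ratios different from 1, as for 63.6% of all genes. Bcl3 and Junb were thus higher in library 4, and the other 4 genes with enough reads in library 3.

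Early-response genes and NF-kB targets were set against each other within each library, which takes out the scaling between libraries. Each gene was expressed as log2(value + 1) minus its median over the 9 libraries, and the means over Icam1, Bcl3 and Birc3 and over Junb, Ier2 and Zfp36 were compared. In library 3 the NF-kB targets stood 2.82 above their medians and the early-response genes 2.54, a difference of 0.27. In library 4 they stood at 2.62 and 2.34, a difference of 0.29. The means lay close together, but the genes within them did not: in library 4 Bcl3 stood 4.26 above its median, Icam1 3.00 and Birc3 0.61. Il1b was left out of the mean because it had 0 reads in library 3, where its value is set by the 1 added to it. With Il1b as the 4th gene, an alternative added after seeing the data, the NF-kB targets stood at 0.72 and 1.01 in libraries 3 and 4. The differences from the early-response genes were then -1.82 and -1.33, below all 7 other libraries, at -0.78 to 0.85. Which way the NF-kB targets parted from the early-response genes thus depended on whether Il1b was counted with them. Without Il1b, the other libraries spread on both sides of the 0.27 and 0.29 of libraries 3 and 4. Library 8 had a difference of 1.28, with NF-kB targets at 1.31 and early-response genes at 0.03, and library 9 had 0.23. Libraries 1, 2, 5, 6 and 7 had -0.03, -0.62, -1.25, -0.64 and -1.04, with the mean of Icam1, Bcl3 and Birc3 below 0 in each. Single genes differed: Birc3 was 0.22 above its median in library 6, and Bcl3 in library 1 and Icam1 in library 2 were at their medians. Without library 8, the lowest Ly6a-high library would lie 0.04 above the highest other one, and with it the sides overlapped by 1.01. All 7 genes varied among the 7 other libraries beyond counting error (chi-square test on reads with Benjamini-Hochberg adjustment over 2341 genes), as did 83.1% of all genes. The variance was 4.45 times that of counting for Birc3, 96.9 times for Bcl3 and 145 times for Ier2. This multiple grows with the number of reads and does not rank the genes by range, which was 24.1-fold for Bcl3 and 2.20-fold for Ier2. Over all 9 libraries the same test called the 7 genes and 98.7% of all genes.

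**Figure D3:**
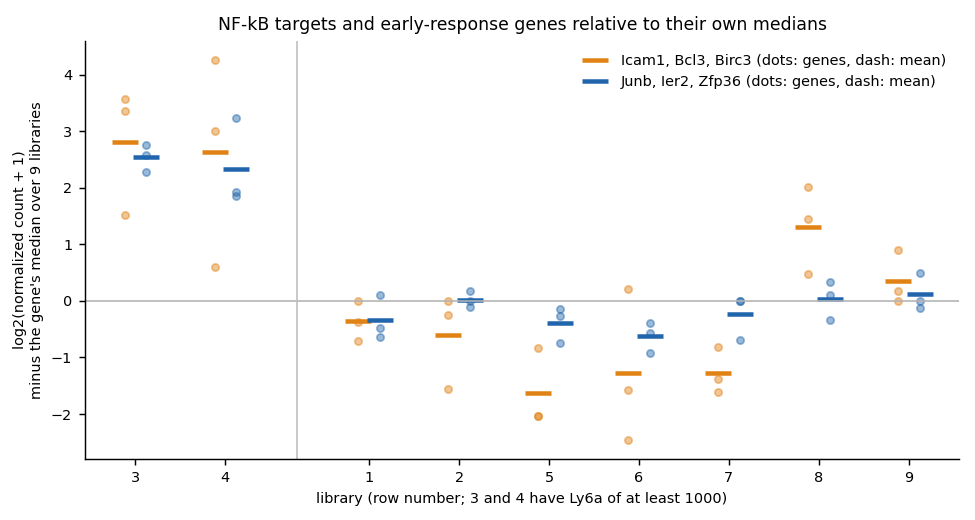
Log2(normalized count + 1) minus the gene's median over 9 libraries (vertical axis) for each library, with NF-kB targets Icam1, Bcl3 and Birc3 in orange and early-response genes Junb, Ier2 and Zfp36 in blue; dots are genes and dashes their means. Il1b is not drawn. Both means are high in libraries 3 and 4 (2.34 to 2.82), where Bcl3 and Birc3 lie far apart, and in library 8 the NF-kB targets stand at 1.31 while the early-response genes stay at 0.03.

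Ratios to Junb within a library show which genes part from it. Icam1 over Junb was 0.276 and 0.134 in libraries 3 and 4, inside the 0.0445 to 0.337 of the other libraries, where libraries 8 and 9 were highest at 0.337 and 0.319. Bcl3 over Junb was 0.143 and 0.193, also inside the range of the others, 0.0208 to 0.303. Birc3 over Junb was lower in both Ly6a-high libraries, at 0.0299 and 0.0114 against 0.0393 to 0.107. Ier2 over Junb was 1.98 and 1.11 against 1.64 to 4.27, and Zfp36 over Junb was 0.936 and 0.409 against 0.653 to 1.28. Icam1 and Bcl3 thus kept the proportion to Junb that some other libraries already had, whereas Birc3 did not keep pace with it. These are ratios of deposited values that are not divided by transcript length, so only their change between libraries can be read.

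**Figure D4:**
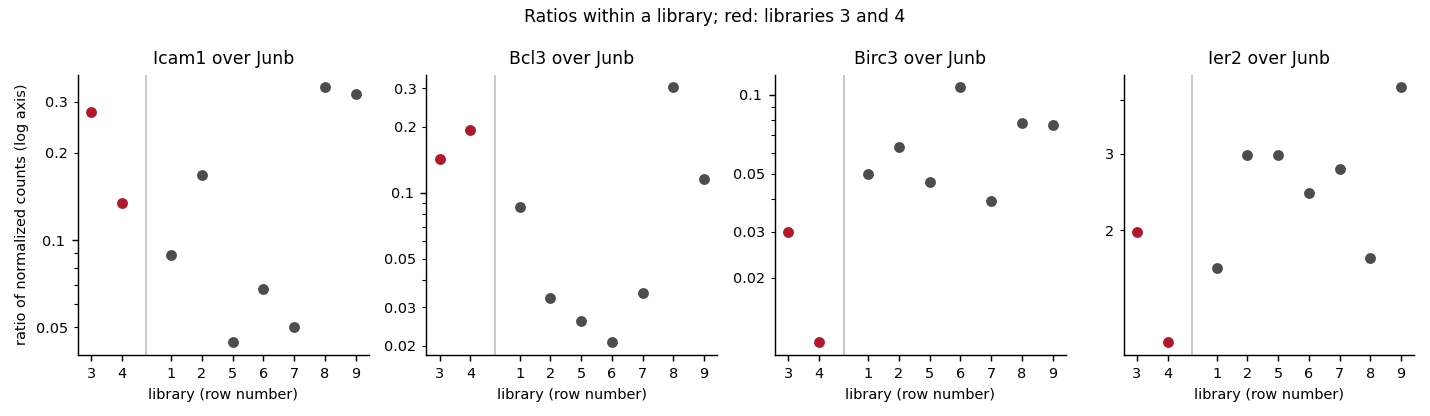
Ratio of normalized counts (log axis, a scale per panel) of Icam1, Bcl3, Birc3 and Ier2 to Junb in each library; red points are libraries 3 and 4 and grey points the others. Libraries 8 and 9 have the highest ratios of Icam1 to Junb (0.337 and 0.319), and both red libraries have the lowest ratios of Birc3 to Junb (0.0299 and 0.0114).

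Profiles over all 9 libraries were compared by the root mean square (RMS) difference of log2 values, each centred on its own mean. Among the 7 genes Ier2 and Zfp36 were closest (0.39), followed by Junb and Zfp36 (0.46) and Junb and Ier2 (0.55), so the early-response genes were nearest to one another. Icam1 and Bcl3 were 0.83 apart. Birc3 was closer to Zfp36 (0.68) and Ier2 (0.70) than to Icam1 (1.35) or Bcl3 (1.81), and Il1b was 2.76 or more from each of the other 6. Most like Junb among 1598 named genes with at least 10 normalized counts in every library were Por, Rbm19 and Fut8 (RMS 0.28 to 0.31), and most like Ier2 were Orai1, Trim26 and Coro7 (0.18 to 0.28). Zfp36 was closest to Tgtp2, Cyp4v3 and Tbc1d10c (0.21 to 0.25). Icam1 was closest to Prtn3, the granule protease proteinase 3, then Gstm1 and Ypel3 (0.30 to 0.40). Bcl3 was closest to Nupr1, a stress-response regulator (0.34), then Ctsf (0.45) and Krt18 (0.55). Birc3 was closest to Aldh6a1, Smad3 and Ppm1f (0.22 to 0.23). Il1b was closest to Gpr97 (0.40) and to the megakaryocyte genes Pf4 (0.43) and Itga2b (0.50). With 0 and 2 reads in libraries 3 and 4, its distances to these and to the other 6 genes depend on the 1 added to each value. The pool also holds no gene as low there as Il1b, and so leaves out genes such as Ppbp (5.90 and 4.58 in libraries 3 and 4). The median over the pool ran from 1.02 for Birc3 to 2.27 for Il1b. These are descriptions over 9 libraries that share the split at Ly6a.

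Of 25 listed transcription factors, Fosl2, Klf6 and Junb were in the table. Fosl2, an AP-1 subunit, had 62.5 and 28.6 normalized counts in libraries 3 and 4, against 0 to 8.39, so it passed the filter through libraries 3 and 4 alone and its side was fixed by that. Klf6, a zinc finger factor, had 583 and 315 against 90.6 to 195. Of 34 other early-response genes, 10 were measured, of which 8 are neither Ier2 nor Zfp36. Dusp4 passed the filter through libraries 3 and 4 alone. The remaining 7 were above every other library, as were 48.1% of the 2214 genes that did not pass in that way. For Btg1, one of these 7 (382 and 205 against 52.2 to 163), counting error did not tell the nearest libraries apart (ratio 1.26, interval 0.964 to 1.65). Gem, a small GTPase, had 1050 and 351 against 1.64 to 25.4. Plk2, a kinase, had 1327 and 141 against 3.93 to 13.1. Dusp4, a phosphatase that switches off MAP kinases, had 111 and 66.4 against 0 to 7.97. Ier3, a survival factor, had 1417 and 2534 against 30.8 to 237, with library 8 highest among the others as for Icam1 and Bcl3. Heat shock genes were listed in view of the handling of cells. Of 14 listed only 3 were measured, and whether handling changes these 3 was not tested. All 3 lay on the opposite side, as did 40.8% of all genes. The chaperone genes Hspd1 (4834 and 7342, against 10008 to 23104), Hspe1 (610 and 1039, against 1245 to 5143) and Hsph1 (132 and 167, against 259 to 538) were lower in both Ly6a-high libraries. The part of handling in the levels of the early-response genes was not tested.

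Of 49 listed NF-kB target genes 14 were measured, and 11 of these are not among the 7 genes. Csf1 and Ccl4 passed the filter through libraries 3 and 4 alone. Of the remaining 9, 8 were above every other library and 1, Birc2, overlapped, beside the same 48.1%. Ltb, which encodes lymphotoxin beta, had 7334 and 2266 in libraries 3 and 4, against 20.0 to 93.3. Traf1, an adaptor of tumour necrosis factor receptors, had 190 and 124 against 2.80 to 22.0. Csf1, the macrophage growth factor, had 114 and 35.5 against 1.40 to 6.52. Tnfaip8, a survival factor, had 2175 and 2305 against 240 to 602, and Tnip1, which restrains NF-kB signalling, had 679 and 428 against 198 to 284. Of the list of subunits and inhibitors only Nfkbib and Bcl3 were in the table, and Nfkbib, which encodes the inhibitor IkB beta, went the other way at 530 and 675 against 934 to 2102. No gene of an NF-kB subunit from that list of 12 was found in the table, so no level can be given for them.

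Upstream of NF-kB, 8 of 38 listed receptors and signalling proteins were measured and all 8 were above every other library, beside 51% of all genes. Tnfrsf1a, a receptor of tumour necrosis factor, had 2317 and 2157 against 142 to 618, with library 8 again highest among the others. Cd27, a receptor of the same family, had 2725 and 3301 against 416 to 901. Map3k14, the kinase of the non-canonical NF-kB route, had 82.6 and 46.9 against 2.80 to 15.7. Tlr2, a receptor of bacterial lipoproteins, had 57.8 and 38.9 against 5.59 to 14.8, and Tradd, an adaptor of Tnfrsf1a, had 967 and 858 against 403 to 656. Of 29 genes of the MAP kinase and serum response factor routes 5 were measured and 4 passed the filter, all 4 of them above, beside the same 51%. Spry2, the one that did not pass, had 11.8 and 6.86 against 0 to 4.92. Map3k1 had 84.9 and 50.3 against 1.54 to 11.2, and Mapk3, the kinase ERK1, had 271 and 160 against 73.9 to 151. The kinases Map2k1 (756 and 539, against 249 to 405) and Rps6ka3 (22.4 and 50.3, against 3.07 to 15.7) had higher values too. The nearest libraries were not told apart by counting error for Rps6ka3 (ratio 1.43, interval 0.597 to 3.77) or Mapk3 (1.06, interval 0.848 to 1.32). The median gaps on the log2 scale were 1.24 over the upstream genes and 0.45 over the MAP kinase genes, beside 0.04 over all genes.

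**Figure D5:**
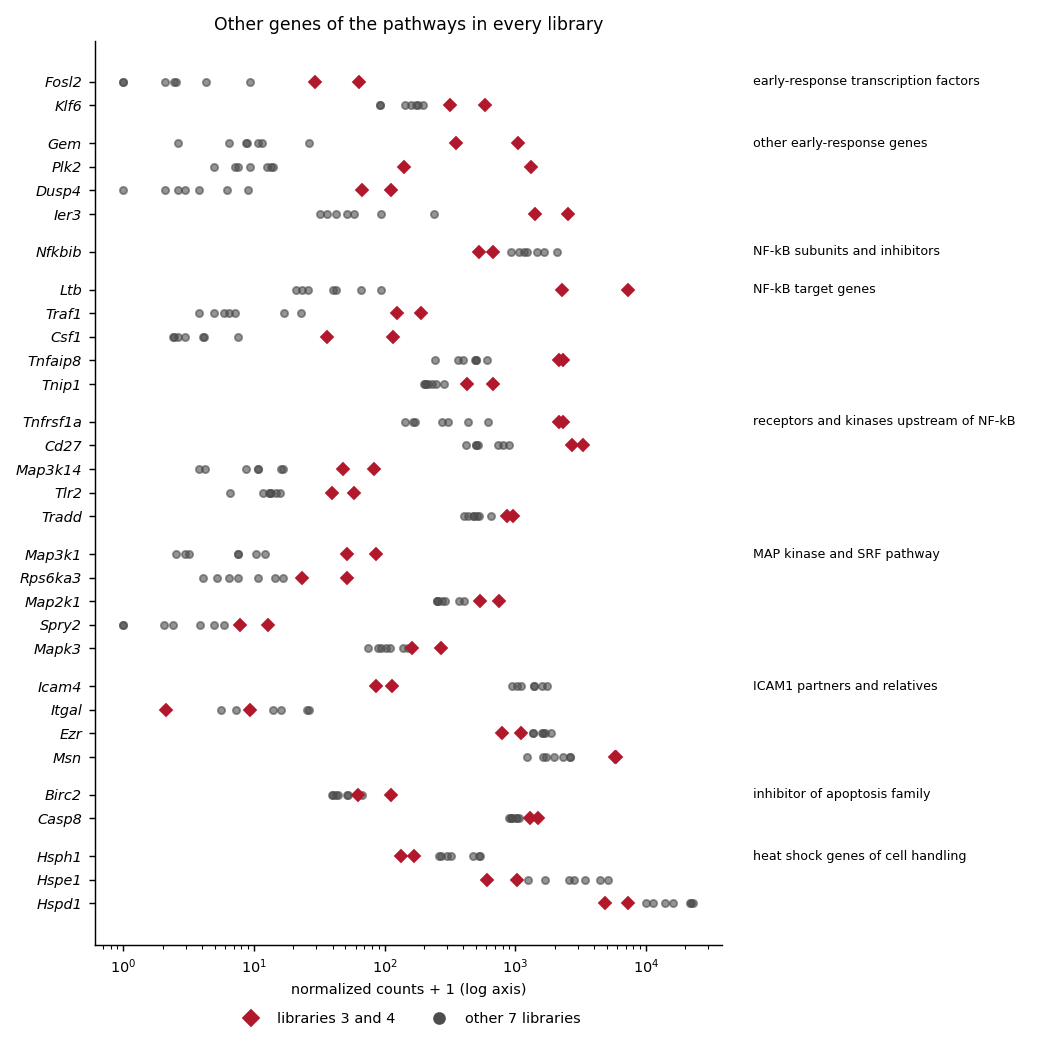
Normalized counts + 1 (log axis) of other genes of the pathways, grouped by the lists named at the right; red diamonds are libraries 3 and 4 and grey dots the other 7. Gem (1050 and 351) and Ltb (7334 and 2266) lie far to the right of the other libraries, whereas Nfkbib, Icam4 and the heat shock genes Hsph1, Hspe1 and Hspd1 lie to the left of them.

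Partners and relatives of Icam1 were divided. Of 9 listed, 4 were measured, with 1 above, 2 below and 1 overlapping, beside 51% of all genes above and 40.8% below. Icam4, which starts 0.556 kb beyond the end of Icam1 on the same strand and encodes an erythroid adhesion molecule, had 84.9 and 112 normalized counts in libraries 3 and 4, against 942 to 1747 in the others, the reverse of Icam1. Itgal, the alpha chain of the integrin LFA-1 that binds Icam1, was low throughout (8.26 and 1.14, against 4.61 to 25.5). Msn and Ezr, which link Icam1 to actin, parted: moesin had 5757 and 5894 against 1225 to 2637, and ezrin had 787 and 1114 against 1115 to 1864, so that its nearest libraries were level and its side is not settled. Of 11 genes of the inhibitor of apoptosis family and their caspases, Birc2, Birc3 and Casp8 were measured. Casp8, the initiator caspase of death receptors, had 1285 and 1493 against 898 to 1064.

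Several of the 7 genes overlap others in GENCODE M21. Junb overlaps the protein-coding Prdx2 on the opposite strand, and Zfp36, Icam1, Bcl3 and Il1b overlap annotated antisense transcripts. None of these is among the genes of the table. Whether the counting used strand is not given in the sources used here, so reads from the overlapping genes cannot be told apart. Ier2 and Birc3 overlap no annotated gene.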

How the data were processed

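The values deposited by the authors are normalized counts, a signal whose scale differs between libraries. The table holds 2402 genes and 9 unnamed rows. The submitters' processing notes name mm10, Bowtie2, STAR and DESeq without roles or versions. How reads were counted and scaled, with which annotation, and how genes were chosen is not given in the sources used here. Per the labels' protocols, a NEBNext Ultra kit was used on RNA from Trizol.

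The 7 genes, the gene lists, the threshold of 1000 for Ly6a and the measures were chosen with earlier results of these data known. No row was assigned to a sample. All values of a row (100%) were whole multiples of 1 step (0.724 to 1.96 normalized counts per read) within 0.1 reads, which gave reads. Intervals (95%) are exact conditional binomial for ratios and exact Poisson for levels. They cover counting error only, since PCR reads are not independent molecules. Counts over all genes used the 2341 that reached 10 normalized counts in 2 or more libraries. Named genes were the 7 genes, Ly6a, up to 4 genes per list with the widest gap, the 2 with the highest median, all of lists with 4 or fewer measured, and the 3 most similar profiles. Coordinates are from GENCODE M21 (mm10), promoters from RefSeq GRCm38.p6 (6 of 7 genes matched), searched in the 250 bases before the start. Of the 6 promoter motifs searched, the loose NF-kB motif was added after the first results. The steps were tested on simulated data. Python 3.11.15, numpy 2.4.6, pandas 2.3.3 and scipy 1.17.1 were used.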

Additional observations from a re-analysis of the deposited data

How the results depend on the processing

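No paired analysis was possible because the rows of the table carry no sample or replicate number. All 3 early-response genes stayed above every other library, and Il1b below, under each scaling, each omitted library, both other Ly6a thresholds, which gave the same split, and values raised to 3 reads. Birc3 turned to a gap of -0.20 under median-of-ratios scaling and -1.08 under quantile normalization. Scaling to the table total, median-of-ratios scaling and quantile normalization moved the median gene by 0.72, -0.48 and -0.76 on the log2 scale in libraries 3 and 4 relative to the others, and the cause was not tested. Genes above every other library made up 55.6% of non-overlapping genes as deposited and 70.3%, 47.4% and 46.4% under these scalings, with 553 genes below under table totals and 696 above under quantile normalization, against 954 and 1193 as deposited. Requiring 10 normalized counts in every library left 758 above, since fewer genes were tested. The gap of the NF-kB minus early-response difference, -1.01 as reported, was -1.76 under quantile normalization, which alters ratios within a library, between -1.01 and 0.0395 with 1 library left out (0.0395 without library 8), 0.30 when libraries 8 and 9 were both left out, and -2.67 with Il1b in the NF-kB mean, both chosen after seeing the data. Il1b rests on 0 and 2 reads in the Ly6a-high libraries, and with a pseudocount of 5 its gap was -1.87.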
